A study of Homo sapiens with 6 samples.

Results

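The genes for the proteasome were examined in OVCAR5, a BRCA wild-type line used as a model of ovarian cancer, and in OVCAR5R, a line derived from it that is resistant to the CHK1 inhibitor prexasertib (Prex). Members were all rows whose symbol begins with PSMA to PSMG and a number, without the inducible catalytic subunits PSMB8, PSMB9, and PSMB10. This rule found 47 of 12308 rows, and all 47 were among the 11766 genes that passed the filter on low values (1 or more in 3 or more libraries). Of the 47, 43 encode a subunit, activator, inhibitor, or assembly factor, and the other 4 (PSMA3-AS1, PSMB8-AS1, PSMG3-AS1, and PSMC3IP) do not and are described apart. RNA-seq of total RNA had been performed on 3 libraries of parental OVCAR5 and 3 libraries of OVCAR5R. The resistance of OVCAR5R was acquired under stepwise Prex exposure (3 to 4 months, highest dose 3 µM), and its stock is held in 2 µM Prex, with a drug-free interval of 4 days or longer preceding use. The methods describe the 3 libraries of each line as separate cultures. They come from 1 resistant line and its 1 parent, so p-values measure the spread between cultures and not between independently selected lines.

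The proteasome is the protease that degrades most ubiquitin-tagged proteins of the cytosol and nucleus. Its 20S core is a barrel of alpha rings, which gate the entry, around beta rings, which hold the proteolytic sites. The 19S regulatory particle on top of the barrel binds ubiquitin chains, and its ATPase ring unfolds the substrate while the other subunits form a scaffold and a lid that removes ubiquitin. Core and 19S particle together make the 26S proteasome, whose subunits are needed in fixed proportions. The transcription factor NFE2L1 is known to raise their genes together when proteasome capacity falls short, by binding antioxidant response elements in their promoters. Cells exposed to interferon-gamma exchange the catalytic subunits PSMB5, PSMB6, and PSMB7 for the inducible PSMB8, PSMB9, and PSMB10 and produce the activator PSME1/PSME2.

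Promoter sequences show where the core of that response element, TGACNNNGC, lies near members of opposite direction. RefSeq promoters on GRCh38.p14, from 250 bases before to 50 bases after the start, matched 37 of the 43 genes by symbol. PSMA7, PSMB1, PSMB6, PSMB7, PSMD4, and PSMG3 were not matched. The 250 bases before the start are given for 3 subunits of the 26S proteasome that hold the motif there (PSMD3, PSMB3, and PSMD12), for PSMB5 and PSMC6, which do not, and for the activator genes PSME1 and PSME2, which do. They lie at chr17:39980557-39980806 (PSMD3, plus strand), chr17:38752491-38752740 (PSMB3, plus strand), chr17:67366578-67366827 (PSMD12, minus strand), chr14:23035221-23035470 (PSMB5, minus strand), chr14:52706950-52707199 (PSMC6, plus strand), chr14:24135944-24136193 (PSME1, plus strand), and chr14:24146611-24146860 (PSME2, minus strand). Each is written 5′ to 3′ on the strand of its gene, and capitals mark the motif.
PSMD3: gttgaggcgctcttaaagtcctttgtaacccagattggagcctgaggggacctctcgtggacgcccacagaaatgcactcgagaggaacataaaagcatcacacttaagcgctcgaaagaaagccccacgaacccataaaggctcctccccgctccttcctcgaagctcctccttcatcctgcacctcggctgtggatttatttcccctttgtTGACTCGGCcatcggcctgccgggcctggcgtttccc
PSMB3: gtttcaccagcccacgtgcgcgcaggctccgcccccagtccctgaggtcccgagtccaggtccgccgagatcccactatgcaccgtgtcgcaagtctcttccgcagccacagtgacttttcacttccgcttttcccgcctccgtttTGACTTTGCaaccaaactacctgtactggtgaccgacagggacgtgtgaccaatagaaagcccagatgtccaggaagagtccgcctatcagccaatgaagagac
PSMD12: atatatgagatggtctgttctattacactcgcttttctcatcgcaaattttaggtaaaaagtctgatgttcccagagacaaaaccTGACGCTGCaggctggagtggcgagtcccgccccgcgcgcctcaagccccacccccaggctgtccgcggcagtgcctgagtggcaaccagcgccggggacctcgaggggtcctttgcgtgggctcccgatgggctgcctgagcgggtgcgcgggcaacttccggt
PSMB5: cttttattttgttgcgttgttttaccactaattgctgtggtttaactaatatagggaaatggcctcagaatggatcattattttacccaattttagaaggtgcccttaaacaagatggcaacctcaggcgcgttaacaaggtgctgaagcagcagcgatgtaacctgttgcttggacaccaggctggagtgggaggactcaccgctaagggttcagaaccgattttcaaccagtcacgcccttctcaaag
PSMC6: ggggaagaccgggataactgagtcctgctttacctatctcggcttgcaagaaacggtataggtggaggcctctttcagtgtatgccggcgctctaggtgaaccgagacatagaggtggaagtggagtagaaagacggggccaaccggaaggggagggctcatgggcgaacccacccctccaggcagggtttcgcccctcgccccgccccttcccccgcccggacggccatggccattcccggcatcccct
PSME1: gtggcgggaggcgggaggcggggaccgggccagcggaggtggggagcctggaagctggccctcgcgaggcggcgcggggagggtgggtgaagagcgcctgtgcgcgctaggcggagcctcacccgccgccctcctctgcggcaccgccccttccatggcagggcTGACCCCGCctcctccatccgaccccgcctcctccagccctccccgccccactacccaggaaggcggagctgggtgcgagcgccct
PSME2: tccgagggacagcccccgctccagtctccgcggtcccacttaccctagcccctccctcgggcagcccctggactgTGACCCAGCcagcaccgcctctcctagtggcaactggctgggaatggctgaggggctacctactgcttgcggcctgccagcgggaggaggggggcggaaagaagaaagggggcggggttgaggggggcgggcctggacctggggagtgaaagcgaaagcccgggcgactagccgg

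Read on both strands, TGACNNNGC began 37 bases before the start in PSMD3, 104 in PSMB3, 165 in PSMD12, 86 in PSME1, and 175 in PSME2. PSMD3 held a second match 33 bases after the start, and the ATPase gene PSMC4 and the scaffold gene PSMD1 held their only match 27 and 39 bases after it. The motif occurred in 12 of the 37 promoters (32.4%), against 13.3% of all 35116 promoters and 15.2% of the promoters of tested genes. It was found in 5 of 26 promoters of 26S subunits (19.2%) and in 7 of 11 promoters of activators, the inhibitor, and assembly factors (63.6%: PSME1, PSME2, PSME4, PSMG1, PSMG2, PSMD5, and PSMD9). Of the 9 matched genes whose OVCAR5R libraries were all higher, 1 (PSMD3) held it. The CCAAT box, which overlapped no TGACNNNGC match, occurred in 45.9% of the 37 promoters. Its share was 34.6% of all promoters and 36.9% of the promoters of tested genes. Among 26S subunits it was 53.8%, and among activators, the inhibitor, and assembly factors 27.3%. These letter matches describe the windows and do not show binding, and no binding was measured.

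Across the whole series, library sums of the normalized values ran from 937274 to 1038240. If the smallest common step of the low values is what 1 read was worth, depth ranged (in 1e6 estimated reads) from 35.8 to 41.3 in the OVCAR5 libraries and from 50.3 to 55.1 in the OVCAR5R libraries. OVCAR5 replicate 2 stood apart from the other OVCAR5 libraries, with a Pearson correlation across genes of 0.898 and 0.883 with replicates 1 and 3, which correlated at 0.955 with each other. Of 6 epithelial markers, 5 were listed, with a summed value from 2255 to 16844 in OVCAR5 and from 3536 to 4715 in OVCAR5R. KRT8 and KRT18 were at 1031 or above in every library. All 5 were highest in OVCAR5 replicate 2. There EPCAM was at 597 and KRT19 at 1341, against at most 31.7 and 10.7 in the other libraries. KRT7 was at 939 there, at 85.8 and 92.7 in OVCAR5 replicates 1 and 3, and at 431 to 583 in OVCAR5R. CDH1 and MUC16 were not listed in the table used here and were not analyzed. PAX8 was low, at 8.38 to 11.4 in OVCAR5 and 4.38 to 5.66 in OVCAR5R. WT1 went the other way but was under the filter, at 0.029 to 0.073 in OVCAR5 and 0.38 to 0.73 in OVCAR5R. Endothelial markers were not listed. Of the fibroblast and leukocyte markers, 2 of 6 and 1 of 5 were listed, with sums of at most 15.4 and 20.2 in OVCAR5 and 9.99 and 5.67 in OVCAR5R. Of 5 proliferation markers, 3 were higher by the mean in OVCAR5R and 0 passed the test, with sums of 1218.5 to 2176 in OVCAR5 and 1598 to 2567 in OVCAR5R. In bulk RNA, a change in the share of cells that express a gene and a change of RNA per cell cannot be told apart.

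The question was whether proteasome genes as a group differ between the resistant line and its parent. By the mean of log2(value + 1), 35 of the 43 genes were higher in OVCAR5R and 8 were lower, where 49.2% of all genes tested were higher. The median log2 difference (OVCAR5R minus OVCAR5) was 0.20 over the 43 genes and -0.01 over all genes tested. Most of the higher genes were subunits of the 26S proteasome. Of these 31 subunits, 29 were higher by the mean, with a median difference of 0.28, and only PSMD7 and PSMB1 were lower. The 12 activators, inhibitor, and assembly factors were mixed, with 6 higher and 6 lower.

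No single gene passed the test. With limma and Benjamini-Hochberg adjustment over all genes, 0 of the 43 genes had an adjusted p under 0.05, where 14 genes of all tested did (0.119%), and the lowest adjusted p of a proteasome gene was 0.306. At an unadjusted p under 0.05, 3 genes were higher (PSMC6, PSMD11, and PSMB5), against 4.14% of all genes tested, and 1 was lower (PSME1), against 6.25%. The 3 OVCAR5R libraries all lay above the 3 OVCAR5 libraries for 11 of the 43 genes, against 8.4% of all genes, and all lay below for 0, against 8.18%. All 11 were subunits of the 26S proteasome, namely PSMA3, PSMB4, PSMB5, PSMB7, PSMC3, PSMC6, PSMD3, PSMD4, PSMD8, PSMD11, and PSMD13. An exact permutation test of 3 against 3 libraries cannot give a two-sided p under 0.1 for any of them.

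**Figure D1:**
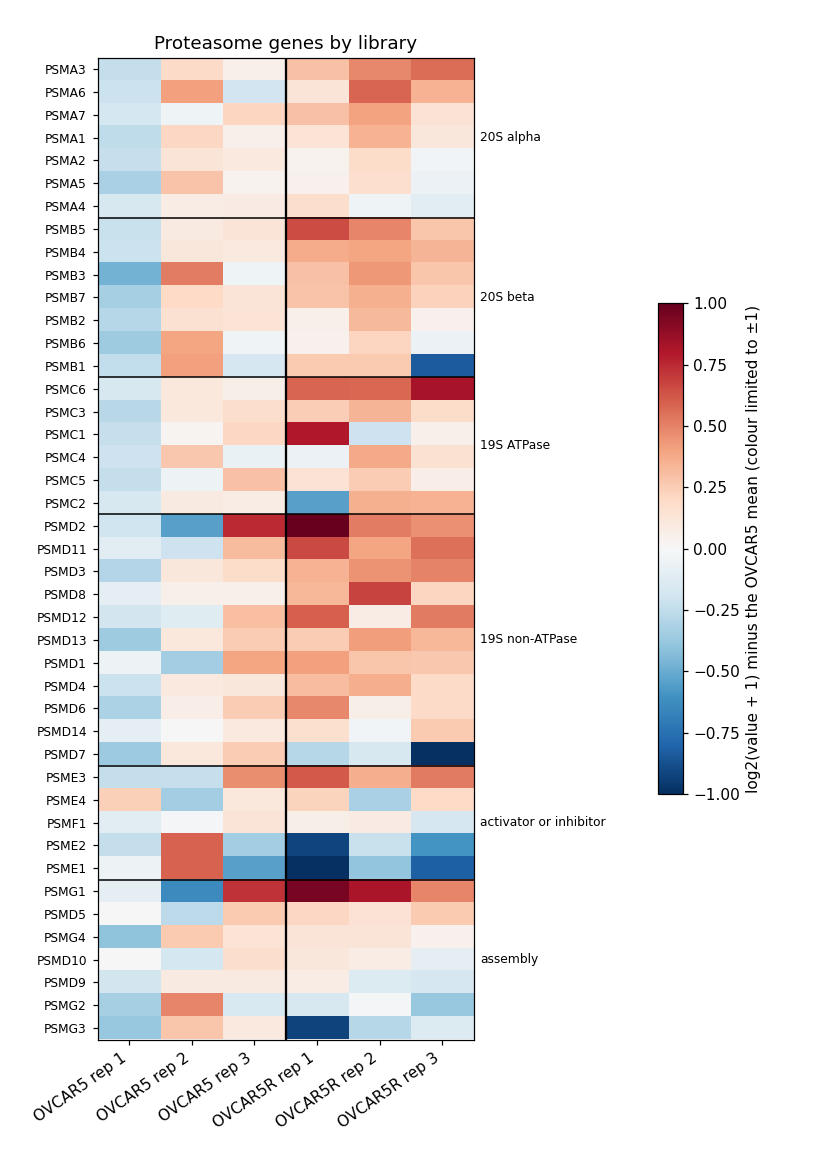
Heat map of the 43 proteasome genes (rows, by role) in the 6 libraries (columns). Color is log2(value + 1) minus the mean of the 3 OVCAR5 libraries, limited to 1 in either direction. OVCAR5 replicate 1 is the lowest OVCAR5 library for 34 of the 43 genes, and most core and 19S rows are above the OVCAR5 mean in all 3 OVCAR5R libraries.

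The size of the shift depended on 1 control library. OVCAR5 replicate 1 was the lowest of the OVCAR5 libraries for 34 of the 43 genes and for 28 of the 31 subunits of the 26S proteasome, whereas it was the lowest for 3471 of all 11766 genes. The median deviation of the 43 genes from the OVCAR5 mean was -0.22 in OVCAR5 replicate 1, 0.10 in replicate 2, and 0.12 in replicate 3. In OVCAR5R it was 0.22, 0.27, and 0.19, in the same order. Every OVCAR5R library thus had a higher median than every OVCAR5 library, by a margin of less than the range among the OVCAR5 libraries. Without OVCAR5 replicate 1, 28 of the 43 genes and 23 of the 31 subunits of the 26S proteasome were higher by the mean, and 11 of the subunits had all OVCAR5R libraries above the remaining OVCAR5 libraries, as did 13% of all genes with these 5 libraries. The differences of PSMD3, PSMD4, PSMB7, PSMC3, and PSMD13, all without overlap, were then 0.28, 0.18, 0.13, 0.12, and 0.15, from 0.43, 0.29, 0.29, 0.26, and 0.33. The spread of the proteasome genes between libraries of a line was below that of all genes by the median, with an SD of 0.26 in OVCAR5 and 0.14 in OVCAR5R on the log2 scale, compared with 0.34 and 0.25 over all genes tested.

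**Figure D2:**
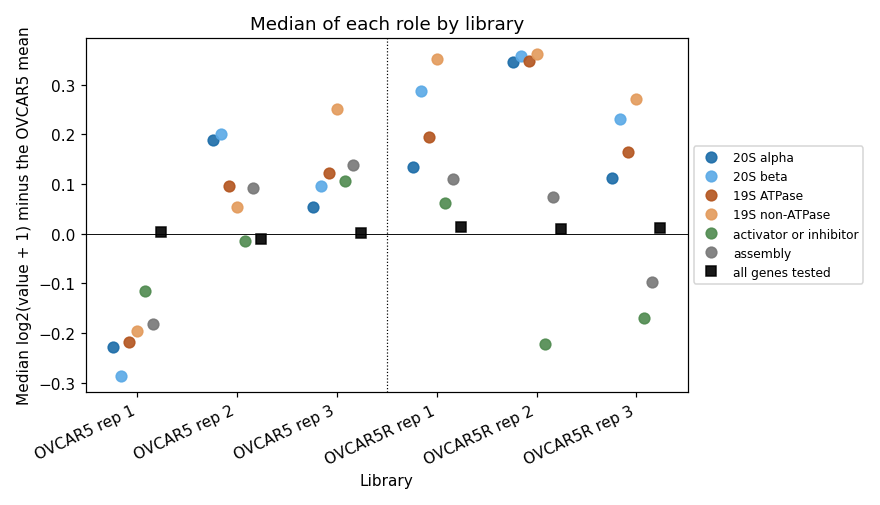
Median over the genes of each role (colored circles) and over all genes tested (black squares) of log2(value + 1) minus the OVCAR5 mean, in each of the 6 libraries. The 4 roles of the 26S proteasome lie between 0.11 and 0.36 in the OVCAR5R libraries and between -0.29 and -0.20 in OVCAR5 replicate 1, and all genes tested stay near 0.

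The alpha subunits, which form the outer rings and the gate of the core, were all higher by the mean (7 of 7, median difference 0.20). PSMA3 had values of 154.5, 208, and 189 in OVCAR5 and 224, 255, and 269 in OVCAR5R, which did not overlap (log2 difference 0.44, SE 0.20, adjusted p = 0.491). PSMA4 was at the other end of the group. Its values of 219, 257, and 259 in OVCAR5 and 275, 237, and 227 in OVCAR5R overlapped fully (difference 0.01, SE 0.19, adjusted p = 0.996). PSMA6 (0.35), PSMA7 (0.28), PSMA1 (0.20), PSMA2 (0.06), and PSMA5 (0.05) lay between them, each with overlapping libraries. Without OVCAR5 replicate 1 the median of the alpha subunits was 0.07.

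The beta subunits include the 3 proteolytic ones of the standard core, of which PSMB5 carries the chymotrypsin-like, PSMB6 the caspase-like, and PSMB7 the trypsin-like activity. Of the 7 genes, 6 were higher by the mean, with a median difference of 0.29, which was 0.10 without OVCAR5 replicate 1. PSMB5, the subunit that the drug bortezomib binds, was measured at 163, 203, and 209 in OVCAR5 (191 ± 24.8, mean ± SD) and at 299.6, 268, and 231 in OVCAR5R (266 ± 34.1). Its libraries did not overlap (difference 0.47, SE 0.20, adjusted p = 0.472). PSMB7 had 119, 172, and 164 in OVCAR5 against 183, 192, and 176 in OVCAR5R, also without overlap (difference 0.29, SE 0.21, adjusted p = 0.655). PSMB6 did not follow them. Its 123, 207, and 154 in OVCAR5 enclosed the 162.5, 183, and 151.5 of OVCAR5R (difference 0.07, SE 0.24, adjusted p = 0.946), and without OVCAR5 replicate 1 the difference was -0.11.

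Among the structural beta subunits, PSMB4 showed the tightest OVCAR5R group, with 229.7, 233, and 224 against 153, 192, and 189 in OVCAR5 (difference 0.37, SE 0.19, adjusted p = 0.537). PSMB1 was the only beta gene with a lower mean. Its values were 176, 277, and 185 in OVCAR5 and 249.2, 249.3, and 116 in OVCAR5R (difference -0.11, SE 0.34, adjusted p = 0.942), so that the low mean rested on OVCAR5R replicate 3, without which the difference was 0.26. PSMB3 (0.33) and PSMB2 (0.14) were higher by the mean with overlapping libraries.

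The ATPase subunits PSMC1 to PSMC6 form the ring that unfolds substrates. All 6 had a higher mean in OVCAR5R, with a median difference of 0.19, which was 0.08 without OVCAR5 replicate 1. PSMC6 had the smallest p of all proteasome genes. It was measured at 90.5, 109, and 105 in OVCAR5 and at 152, 152, and 180.2 in OVCAR5R, a clear gap between the groups (difference 0.66, SE 0.19, adjusted p = 0.306). PSMC3 was also without overlap, with 230.3, 300.1, and 315 in OVCAR5 and 331.5, 354, and 317 in OVCAR5R (difference 0.26, SE 0.20, adjusted p = 0.687). The margin between its groups was narrow, as 315 and 317 were neighbors.

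PSMC2 was the lowest ATPase gene. Its values were 108, 128.5, and 127 in OVCAR5 and 82.4, 155, and 154 in OVCAR5R (difference 0.05, SE 0.28, adjusted p = 0.966), with OVCAR5R replicate 1 below all other libraries. PSMC1 showed the opposite, with 429 in OVCAR5R replicate 1 and 213 and 255 in replicates 2 and 3, against 209 to 284 in OVCAR5. Its difference of 0.22 was -0.08 without OVCAR5R replicate 1. PSMC4 (0.16) and PSMC5 (0.15) had overlapping libraries.

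The remaining 19S subunits with a PSM symbol, the PSMD genes, had the highest median of all roles, at 0.33. Of these, 10 of 11 were higher by the mean, and the median was 0.28 without OVCAR5 replicate 1. The 8 lid subunits among them had a median of 0.37, with 4 genes higher without overlap, against 8.4% of all genes tested. PSMD11, a lid scaffold subunit, had 221.5, 206, and 297 in OVCAR5 and 377, 314, and 349.5 in OVCAR5R (difference 0.53, SE 0.21, adjusted p = 0.448). PSMD3, another lid subunit, had 260.0, 346, and 362 in OVCAR5 and 408, 436, and 451 in OVCAR5R (difference 0.43, SE 0.21, adjusted p = 0.509). In both genes the groups were separate. The lid subunits PSMD8 and PSMD13 were without overlap as well. PSMD8 had 166, 184.4, and 183.8 in OVCAR5 against 224, 285, and 206 (difference 0.41, SE 0.20, adjusted p = 0.521), and its difference was 0.27 without OVCAR5R replicate 2. PSMD13 had 192, 266, and 294.3 against 294.5, 329, and 311.5 (difference 0.33, SE 0.22, adjusted p = 0.624), so the highest OVCAR5 and the lowest OVCAR5R library were almost equal.

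PSMD4, a receptor for ubiquitin chains, had 133, 166.5, and 168 in OVCAR5 and 192, 199.7, and 177 in OVCAR5R, without overlap (difference 0.29, SE 0.19, adjusted p = 0.633). PSMD2, the scaffold that docks shuttle factors, had the highest mean difference of the 26S subunits but also a broad spread. It was measured at 563, 441, and 1079 in OVCAR5 and at 1352, 921.5, and 886 in OVCAR5R (difference 0.68, SE 0.36, adjusted p = 0.541), and OVCAR5 replicate 3 lay above 2 of the OVCAR5R libraries. The difference was 0.41 without OVCAR5 replicate 2 and 1.05 without OVCAR5 replicate 3. PSMD12 (0.40), PSMD1 (0.32), PSMD6 (0.24), and PSMD14, the deubiquitinating enzyme of the lid (0.13), overlapped.

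PSMD7, the lid partner of PSMD14, was the exception among these PSMD genes. Its values were 119, 166, and 183 in OVCAR5 and 126, 137, and 74.3 in OVCAR5R (difference -0.49, SE 0.29, adjusted p = 0.589). OVCAR5R replicate 3 was the lowest of all libraries, and without it the difference was -0.22. PSMD14 itself had means of 190.5 in OVCAR5 and 209 in OVCAR5R.

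**Figure D3:**
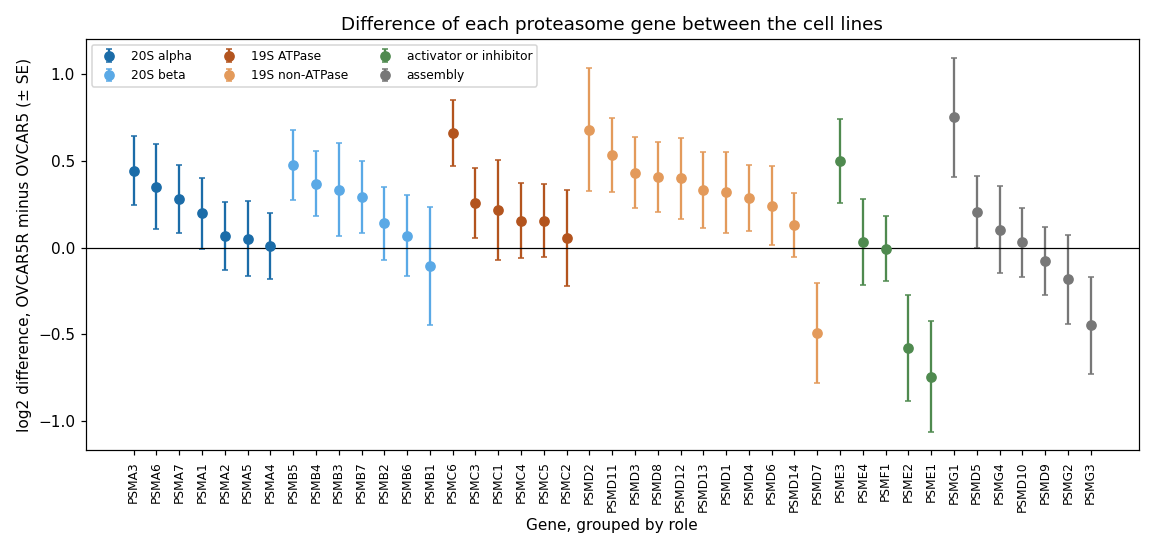
Log2 difference (OVCAR5R minus OVCAR5) of each of the 43 proteasome genes with its standard error from limma, ordered within each role. The 26S subunits lie above 0 except PSMB1 and PSMD7, and the activators and assembly factors spread from -0.74 (PSME1) to 0.75 (PSMG1).

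The activators, which replace the 19S particle at the end of the core, had means of differing direction. PSME1 and PSME2, the interferon-induced pair that forms the PA28 alpha-beta ring, had lower means in OVCAR5R. PSME1 was measured at 392, 614, and 279 in OVCAR5 and at 199, 310.0, and 231 in OVCAR5R (difference -0.74, SE 0.32, adjusted p = 0.472). PSME2 was measured at 274, 486, and 254 and at 171, 277, and 214 (difference -0.58, SE 0.31, adjusted p = 0.546). In both genes OVCAR5 replicate 2 was the highest and OVCAR5R replicate 1 the lowest library, and OVCAR5R replicate 2 overlapped the OVCAR5 group. Without OVCAR5 replicate 2 the differences were -0.45 for PSME1 and -0.28 for PSME2.

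PSME3, which forms the nuclear PA28 gamma ring, had a higher mean. It had 175, 176, and 285 in OVCAR5 and 316.5, 266, and 296 in OVCAR5R (difference 0.50, SE 0.24, adjusted p = 0.516), with OVCAR5 replicate 3 above the lowest OVCAR5R library. PSME4, the large nuclear activator PA200, differed by 0.03 and PSMF1, the inhibitor PI31, by -0.01. The median of the 5 genes was -0.01, and it was -0.14 without OVCAR5 replicate 2 and 0.06 without OVCAR5 replicate 3.

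The assembly factors, chaperones that leave the finished particle, had a median of 0.03 (4 of 7 higher by the mean), which was -0.10 without OVCAR5 replicate 1. PSMG1, which guides formation of the alpha ring, had 32.5, 21.9, and 57.7 in OVCAR5 and 67.8, 61.8, and 49.0 in OVCAR5R (difference 0.75, SE 0.34, adjusted p = 0.493). OVCAR5 replicate 3 lay within the OVCAR5R group, and the difference was 1.11 without it and 0.43 without OVCAR5 replicate 2. PSMG2, the partner of PSMG1 in 1 dimer, went the other way by the mean (-0.18), with overlapping libraries. PSMG3, of the second alpha-ring chaperone dimer, was the lowest, with 54.3, 86.0, and 76.0 in OVCAR5 and 36.8, 58.0, and 64.4 in OVCAR5R (difference -0.45, SE 0.28, adjusted p = 0.612), and a difference of -0.21 without OVCAR5R replicate 1. Its partner PSMG4 differed by 0.10. Of the chaperones of the 19S base, PSMD5 differed by 0.20, PSMD10 by 0.03, and PSMD9 by -0.08.

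Levels were compared between proteasome genes only per kilobase, over the median length of the coding-consensus transcripts and over the longest principal transcript. By both lengths the assembly factors were listed at lower levels than the core, with a median of 29.4 and 17.8 in OVCAR5 per kilobase, against 196 and 180 for the alpha subunits and 185 and 185 for the beta subunits. In OVCAR5, PSMB3 was the highest of the beta genes, PSMC5 of the ATPase genes, PSMD2 of the other 19S genes, and PSME1 of the activators by both lengths.

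The inducible catalytic subunits were compared with the standard ones they replace. PSMB8, PSMB9, and PSMB10 were lower in every OVCAR5R library than in every OVCAR5 library, as were 8.18% of all genes tested, and none passed the test. PSMB8 had 87.5, 167, and 89.5 in OVCAR5 and 30.2, 81.3, and 65.2 in OVCAR5R (difference -0.996, SE 0.41, adjusted p = 0.451). PSMB9 had 47.4, 113, and 47.9 against 13.1, 38.9, and 31.0 (difference -1.30, SE 0.47, adjusted p = 0.401). PSMB10 had 57.8, 163, and 78.0 against 27.1, 48.1, and 19.2 (difference -1.59, SE 0.44, adjusted p = 0.2999). OVCAR5 replicate 2 was the highest library for all 3, as for PSME1 and PSME2. OVCAR5R replicate 1 was the lowest for PSMB8 and PSMB9, and OVCAR5R replicate 3 for PSMB10. The differences of PSMB8 and PSMB9 were -0.69 and -0.89 without OVCAR5 replicate 2, and -0.58 and -0.86 without OVCAR5R replicate 1.

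Within a library the ratio of standard to inducible subunit does not depend on scaling. The log2 ratio of PSMB5 to PSMB8 was 0.89, 0.28, and 1.21 in OVCAR5 and 3.27, 1.71, and 1.81 in OVCAR5R. The groups did not overlap, and the ratio was 1.47 higher in OVCAR5R. The ratio of PSMB6 to PSMB9 was 1.37 higher and that of PSMB7 to PSMB10 was 1.89 higher, again without overlap. Each exact two-sided permutation p was 0.1, the smallest that 3 against 3 libraries allow, and 0.1 after adjustment over the 3 ratios. Without OVCAR5R replicate 1 the ratios were 0.97, 0.94, and 1.83 higher, and without OVCAR5 replicate 2 they were 1.21, 1.16, and 1.56 higher. PSMB5 itself, at 0.47, and PSMB8, at -0.996, both contributed to the first ratio, whereas PSMB6 differed by 0.07 only.

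**Figure D4:**
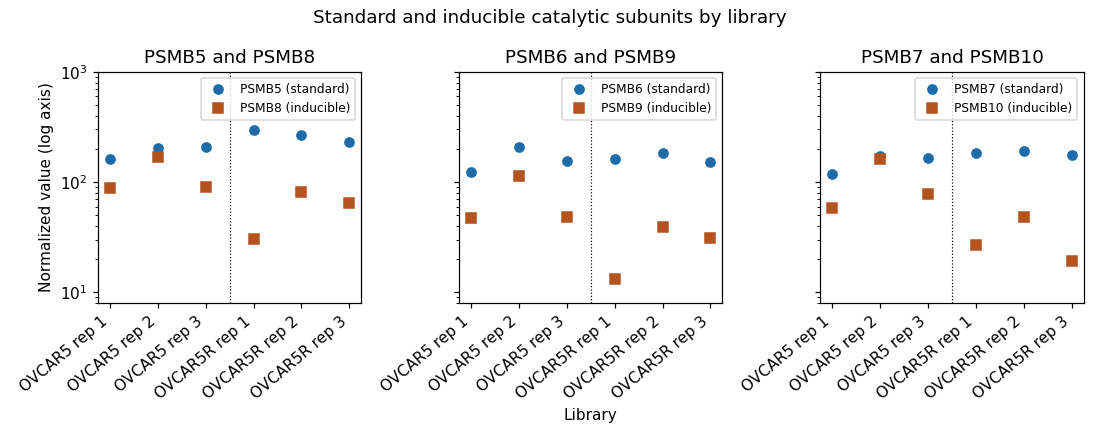
Normalized values (log axis) of the standard catalytic subunits (circles) and their inducible counterparts (squares) in the 6 libraries. The standard subunits stay between 119 and 299.6, whereas PSMB8, PSMB9, and PSMB10 are at 81.3 or below in OVCAR5R and reach 167, 113, and 163 in OVCAR5 replicate 2.

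Proteasome genes are scattered over many chromosomes, and their differences were set beside those of their neighbors. For each gene the median difference of the other tested genes with a midpoint within 10 Mb was taken, proteasome genes left out. Over the 31 subunits of the 26S proteasome, the difference of the gene and that of its neighbors had a Pearson r of 0.68 and a Spearman rho of 0.53 (a description, as several genes share a window, and all share libraries). Over the 12 activators, inhibitor, and assembly factors r was 0.20. Of the 31 subunits, 25 had a difference above that of their neighbors. Over all 31, the median of the gene's difference minus that of its neighbors was 0.18.

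Chromosome 14 carries 7 of the 43 genes. PSMC6 (chromosome 14, 52707172 to 52728587, plus strand), PSMA3 (58244831 to 58272012, plus strand), and PSMA6 (35278633 to 35317493, plus strand) lay among genes with a median difference of 0.62, 0.61, and 0.50. PSMC6 exceeded its 82 neighbors by 0.04 only, and PSMA3 and PSMA6 were below theirs. PSMB5 (23016543 to 23035230, minus strand), PSME1, and PSME2 share 1 window of 86 other genes with a median of 0.09, and so PSMB5 was above, and PSME1 and PSME2 were below, the same neighbors. Without chromosome 14, 24 of 26 subunits of the 26S proteasome were higher by the mean, with a median of 0.25. Of these 26, 8 were higher without overlap, against 8.4% of all genes tested.

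The exceptions among the 31 subunits of the 26S proteasome were also near shifted neighbors. PSMD7, on chromosome 16 (74296775 to 74306288, plus strand), had a difference of -0.49 among 121 genes with a median of -0.49. In OVCAR5R replicate 3, where PSMD7 was lowest, these neighbors had a median deviation of -0.97 from the OVCAR5 mean. The inducible PSMB10, also on chromosome 16, had a difference of -1.59 among 117 genes with a median of -0.48. In OVCAR5R replicate 3, where PSMB10 was lowest, its neighbors were at -0.97 as well. The 210 neighbors of PSMB8 and PSMB9 had a median of -0.03. The 16 neighbors of PSMB1 were at -0.63 in OVCAR5R replicate 3, the library in which PSMB1 was low. In OVCAR5R replicate 1, the neighbors of PSMC2 were at -0.81 and those of PSMC1 at 0.50, the libraries and directions in which these ATPase genes stood out. Deviations of the 31 subunits and of their neighbors were also taken from the mean of the same line. They correlated with r of 0.79, 0.79, and 0.87 (rho 0.54, 0.67, and 0.54) in the OVCAR5R libraries. In the OVCAR5 libraries r was 0.17, 0.11, and 0.29 (rho 0.13, 0.07, and 0.25). The copy number of these regions was not measured, and its part in the differences was not tested.

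**Figure D5:**
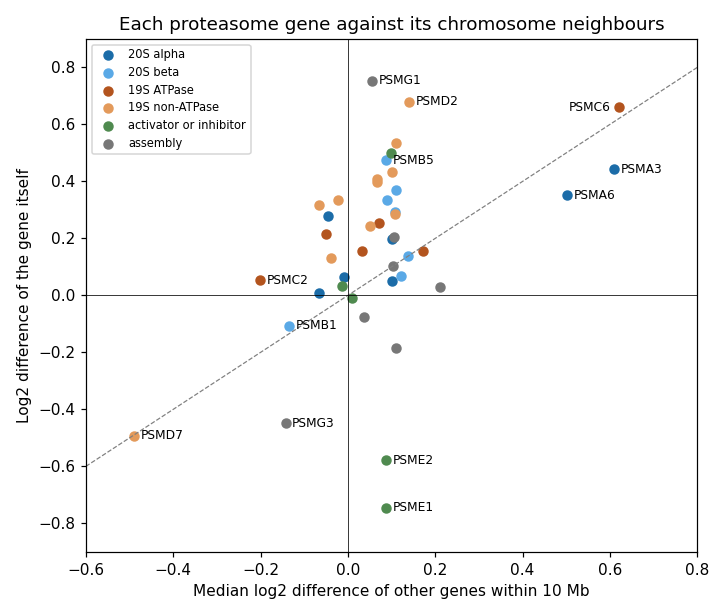
Log2 difference (OVCAR5R minus OVCAR5) of each of the 43 proteasome genes (y axis) against the median log2 difference of the other tested genes within 10 Mb (x axis). The dashed line marks equal values. PSMC6 and PSMD7 lie near the line at either end, PSME1 and PSME2 far below it, and 25 of the 31 subunits of the 26S proteasome above it.

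Other genes of the pathway, from lists, did not share the shift of the 31 subunits above to the same extent by their medians. This difference was not tested. The 11 proteasome-associated factors had a median of 0.02 (7 higher by the mean, 0 called). Among the 11, 1 was higher without overlap, against 8.4% of all genes tested. It was the deubiquitinating enzyme USP14 (156, 120.2, and 161 in OVCAR5, 174, 164, and 165 in OVCAR5R, difference 0.21). POMP, the maturation factor of the core, differed by -0.04. Of the 4 regulators of proteasome gene transcription, NFE2L1 itself had 566, 428, and 369.9 in OVCAR5 and 433, 592, and 459 in OVCAR5R (difference 0.13, SE 0.24, adjusted p = 0.887). Its libraries overlapped. NGLY1 and DDI2, the enzymes that process NFE2L1 protein, differed by 0.61 and -0.30, and NFE2L2 by 0.01.

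Beside the genes without overlap named here, 8.4% of all genes tested were higher and 8.18% lower in this way. The 11 ubiquitin genes, activating enzymes, and shuttle factors had a median of 0.17 (8 higher by the mean, 0 called), with the shuttle factors RAD23B (0.25) and UBQLN1 (0.29) without overlap. The 8 genes of p97, the segregase that hands substrates to the proteasome, and its cofactors had a median of 0.05 (4 higher, 0 called). VCP (0.21), NPLOC4 (0.46), and FAF1 (0.45) were without overlap. UFD1, the partner of NPLOC4, had 45.4 and 40.5 in OVCAR5R replicates 1 and 2 against 168 in replicate 3 and 152 to 171 in OVCAR5. The COP9 signalosome and eIF3, built on a plan like that of the lid, had medians of 0.08 (5 of 9 higher) and 0.00 (6 of 13 higher), with 0 called in both. The 8 lid genes with a PSMD symbol had a median of 0.37. COPS3 (0.38) of the signalosome was higher without overlap, and EIF3D (-0.59) and EIF3L (-0.63, adjusted p = 0.309) of eIF3 were lower without overlap.

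Of the 4 rows that are no proteasome part, the antisense RNA PSMB8-AS1 was lower without overlap, with 6.50, 16.8, and 8.09 in OVCAR5 and 2.16, 6.18, and 5.91 in OVCAR5R (difference -0.98, SE 0.45, adjusted p = 0.493). PSMG3-AS1 was also lower without overlap (difference -0.89). Without OVCAR5R replicate 1 these differences were -0.60 and -0.37. Of the others, PSMA3-AS1 was higher without overlap (0.34), and PSMC3IP, a recombination factor whose libraries overlapped, differed by 0.26. Among all genes tested, 8.18% were lower and 8.4% higher without overlap. PSMB8-AS1 overlaps PSMB8 and PSMB9, and PSMA3-AS1 and PSMG3-AS1 overlap the genes they are named for. Whether reads were assigned by strand is not given in the sources used here, so such partners cannot be told apart. The same holds for other pairs whose gene spans overlap. Among them are PSME3 with BECN1, PSMC1 with NRDE2, PSMC5 with FTSJ3, PSMD5 with CUTALP, PSMG2 with CEP76, and PSMG4 with SLC22A23. PSMA6 with AL121594.1 and PSMA2 with AC010132.3 overlap on the same strand, where assignment by strand would not separate them. GENCODE 29 also lists 32 proteasome pseudogenes that could share reads with their parents.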

How the data were processed

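Total RNA of 3 cultures of OVCAR5 and 3 of OVCAR5R had been sequenced, per the supplementary methods. The authors deposited a normalized signal per gene and library on a linear scale, in rows listed by gene symbol (12308 rows, 12305 different symbols). Their supplementary methods state quartile normalization, and per the labels the build was hg38. The aligner, counter, annotation, and strand setting are not given in the sources used here. A duplicated row was kept once. Values were analyzed as log2(value + 1), on which changes of low genes are understated, with limma 3.58.1 under R 4.3.3 (linear model without covariates, eBayes with trend), over the 11766 genes with 1 or more in 3 or more of 6 libraries. P-values were adjusted by the Benjamini-Hochberg method at 0.05. The script was tested on simulated data. Positions and lengths came from GENCODE 29 on GRCh38 (99.4% of rows matched by symbol). About 7 in 10 low values were whole multiples of a library's step within 0.01, so no count test was used. Ratios and counts were computed with Python version 3.11.15 and figures with matplotlib version 3.10.9.

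Members and lists were chosen with earlier results of these data known. Full values were given for PSMB5, PSMB6, and PSMB7, the highest and lowest gene of each role, the 5 smallest p-values, and genes without overlap of the libraries. PSME2, PSMC1, and genes outside the 43 were given values in addition, chosen after their values were seen. Alternatives were a pseudocount of 0.1, 2 other filters, 3 other scalings, limma without trend, a replicate block, a window of 5 Mb, and each library left out in turn.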

Additional observations from a re-analysis of the deposited data

How the results depend on the processing

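Under none of the 14 alternatives did a proteasome gene reach an adjusted p under 0.05 in limma, and the lowest was 0.188 (PSMG1 without OVCAR5 replicate 3). Under the 8 alternatives that used all libraries, only PSMF1 (0.01 by quantile normalization and 0.06 with equal library totals) and PSMA4 (-0.0036 by median-ratio scaling) changed sign, whereas leaving out a library turned 13 of the 43 genes. A total of 30 of the 43 genes and 23 of the 31 subunits of the 26S proteasome had the same sign under all 14. With a library left out, the number of genes called over the whole table ranged from 0 (without OVCAR5R replicate 3) to 24 (without OVCAR5 replicate 2), that of proteasome genes without overlap from 11 to 19 higher (19 without OVCAR5 replicate 3) and from 0 to 4 lower (4 without OVCAR5 replicate 1), the median of the beta subunits from 0.10 to 0.39, and that of the activators and inhibitor from -0.14 to 0.06. With fewer libraries, an absence of overlap is easier to reach: without OVCAR5 replicate 3, 16.9% of all genes were higher in this way, and without OVCAR5 replicate 1, 12.3% were lower. With a library left out, the core subunits that changed sign ranged from -0.05 to 0.13 (PSMA2), -0.08 to 0.06 (PSMA4), -0.11 to 0.19 (PSMA5), -0.0033 to 0.21 (PSMB2), -0.11 to 0.26 (PSMB6), and -0.29 to 0.26 (PSMB1). The ATPase genes that did so ranged from -0.10 to 0.35 (PSMC2) and -0.08 to 0.43 (PSMC1). The others of the 13 ranged from -0.10 to 0.23 (PSMG4), -0.14 to 0.21 (PSME4), -0.06 to 0.12 (PSMD10), -0.35 to 0.06 (PSMG2), and -0.07 to 0.07 (PSMF1). PSMC3IP, which is not one of the 43, also changed sign (-0.07 to 0.62). The cause was not tested.

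With a replicate block, 5 genes were called over the whole table instead of 14, and 0 proteasome genes as before. The labels number the libraries but do not say that a number marks a shared batch, and libraries of the same number did not deviate together (correlations over genes of 0.00, 0.18, and -0.12).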
